A study of Caenorhabditis elegans with 18 samples.

Results

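The transthyretin-related (ttr) genes of Caenorhabditis elegans were followed across wild-type and ire-1 mutant worms, with and without exposure to 2 °C. Members were the genes with a symbol made of ttr and a number, except as noted under the processing, which gave 57 of the 46748 gene identifiers in the count tables. The choice used symbols and no measured value. RNA was sequenced from whole worms after poly(A) selection, in 18 libraries, 12 of them in experiment 1 and 6 in experiment 2. WT worms were strain N2, and the mutant strain carried ire-1(ok799), an allele of the gene for IRE-1, a sensor of unfolded protein in the endoplasmic reticulum. The allele was present in the whole animal, not in 1 tissue. Control worms of both genotypes were raised at 15 °C and harvested on day 1 of adulthood. Cold worms were raised in the same way and then held at 2 °C for 24 h, so they were also 24 h older, and no group of that age without cold was included. There were 6 WT control and 6 WT cold libraries, 3 of each in either experiment, and 3 ire-1 control and 3 ire-1 cold libraries, all from experiment 1.

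Transthyretin-related proteins form a family that expanded in nematodes and is named for its resemblance to transthyretin, the carrier of thyroid hormone and retinol in vertebrates. Most of them carry a signal for secretion, and few have a described role. TTR-52 is secreted from the gut, binds phosphatidylserine on dying cells and bridges it to the engulfment receptor CED-1. TTR-11 binds phosphatidylserine on injured axons and links it to integrin, and TTR-33 protects dopaminergic neurons from oxidative damage.

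Total counts were 20621965 to 29518450 in experiment 1 and 10449794 to 16814732 in experiment 2. Levels are given as CPM, the counts of a gene relative to the library total, after TMM scaling, in which 3 reads stood for 0.0914 to 0.268 CPM. The ire-1 gene was at 85.4 to 227 CPM in the WT libraries and at 36.6 to 63.8 CPM in the ire-1 libraries, without overlap. In control 1 and cold 2 of either strain, 4 libraries in all, the 58 sperm genes summed to 1891 CPM in WT control 1, 2112 CPM in ire-1 control 1, 474 CPM in WT cold 2 and 1664 CPM in ire-1 cold 2, against 9.65 to 173 CPM in the other 14. These 4 sperm-rich libraries also had the highest cuticle collagen sums, at 23306 to 60188 CPM against 6853 to 19081 CPM, and the highest body wall muscle sums, at 5158 to 9357 CPM against 1108 to 4099 CPM. WT control 6 had the lowest muscle sum of all, 1108 CPM, and an intestinal sum of 2017 CPM against 2643 to 5580 CPM in the other WT control libraries. WT cold 5 had the highest intestinal sum of the WT cold libraries, 2930 CPM against 919 to 1859 CPM. In RNA from whole worms, fewer cells of a type and less RNA per cell cannot be told apart.

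The 57 genes lay on all chromosomes, with 22 on V, 11 on X, 10 on IV, 9 on III, 3 on I and 2 on II of WBcel235. Their exons covered 460 to 1415 bases, with a median of 575. Of the 57, 29 lay in 12 clusters in which neighbours were at most 5000 bases apart. Among them were ttr-3, ttr-2 and ttr-1 on chromosome III from 9925459 to 9930413, ttr-40 and ttr-49 on V from 9354521 to 9356515, and ttr-54 and ttr-53 on IV from 10155775 to 10158974. Exons of 16 members overlapped those of another gene. These included ttr-16 with lin-3, ttr-51 with JC8.7 and ttr-33 with txt-5, the last on the same strand. Where the other gene is on the opposite strand the values are uncertain, because no source used here gives the strand setting of the counting. Where it is on the same strand, as for ttr-33 over 42 bases, they are uncertain under any strand setting.

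A few members supplied most of the family's RNA. The highest group mean was at least 100 CPM for 5 members, 10 to under 100 CPM for 20, 1 to under 10 CPM for 19 and under 1 CPM for 13. The 5 members with the largest levels, ttr-15, ttr-2, ttr-51, ttr-16 and ttr-46, held 57.6% to 64.8% of the summed ttr level of a library. In WT control, ttr-15 was at 210 CPM in the lowest library, 415 CPM at the median and 718 CPM in the highest. For ttr-2 the same values were 141, 281 and 388 CPM, and for ttr-51 they were 98.5, 216 and 302 CPM. Each of these genes varied about 3-fold among the WT control libraries, and their ranges overlapped. Per kilobase of exon, the mean WT control level was 697.9 CPM for ttr-15, 530 for ttr-2, 433 for ttr-51, 329 for ttr-16, 166 for ttr-46, 134 for ttr-45, 133 for ttr-24 and 131 for ttr-53. The ranges of neighbours in this order overlapped, as between ttr-15, at 345 to 1178 CPM per kilobase, and ttr-2, at 284 to 783. Within a library the order was steadier, since ttr-16 was above ttr-46, and ttr-46 above ttr-45, in 6 of 6 WT control libraries. The other neighbours kept their order in 4 or 5 of 6. At the other end, 9 members stayed under 1 CPM in every library, and ttr-19 had 0 reads in all 18, which allows up to 0.0914 to 0.268 CPM in a library.

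**Figure D1:**
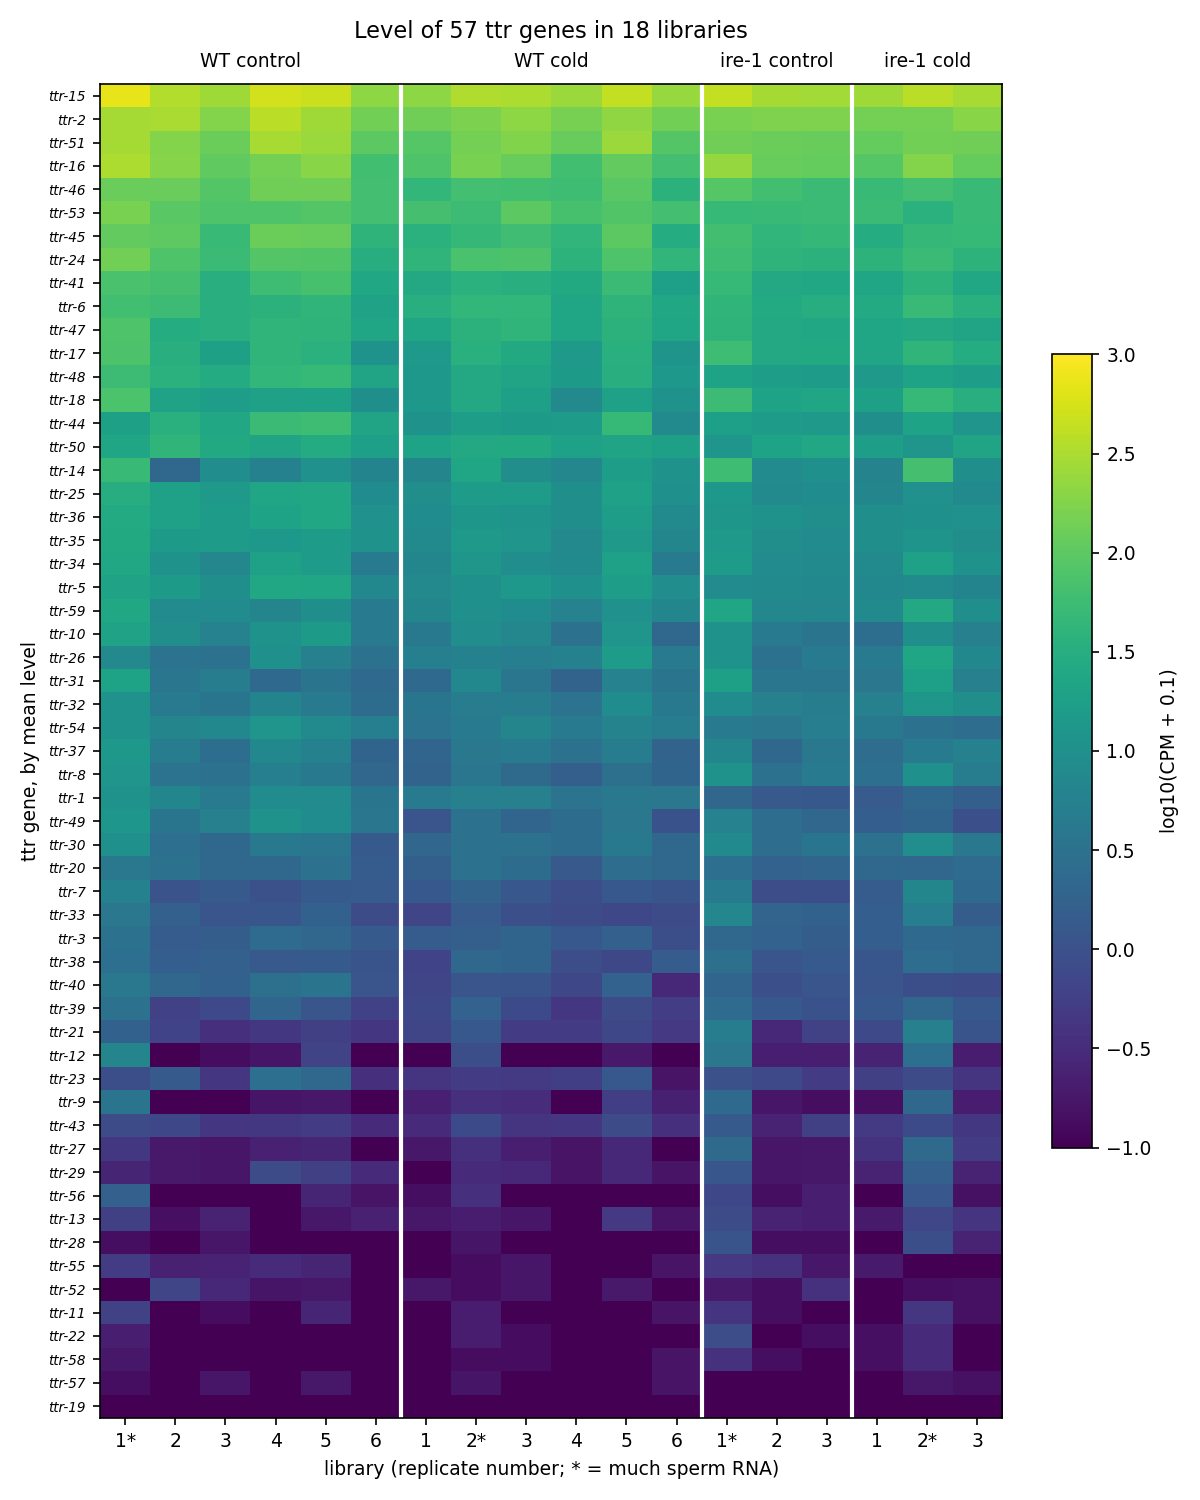
Level of each of the 57 ttr genes (rows, ordered by mean level over all libraries) in each of the 18 libraries (columns, by group and replicate number), as log10(CPM + 0.1). Asterisks mark the 4 sperm-rich libraries. The upper rows differ little between libraries on this scale, and several of the lower rows, such as ttr-12 and ttr-27, are bright mainly in columns with an asterisk.

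The summed level of the family varied as much within groups as between them. In WT control the 57 members summed to 2987, 1889, 1296, 2315, 2159 and 949 CPM in libraries 1 to 6. In WT cold the sums were 948, 1438, 1472, 1021, 1851 and 927 CPM. The ire-1 control libraries held 1786, 1170 and 1152 CPM, and the ire-1 cold libraries 1050, 1605 and 1253 CPM. All 4 groups overlapped. The WT control libraries were high except for control 3 and control 6, and the highest sums of ire-1 control and ire-1 cold were those of the sperm-rich libraries.

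**Figure D2:**
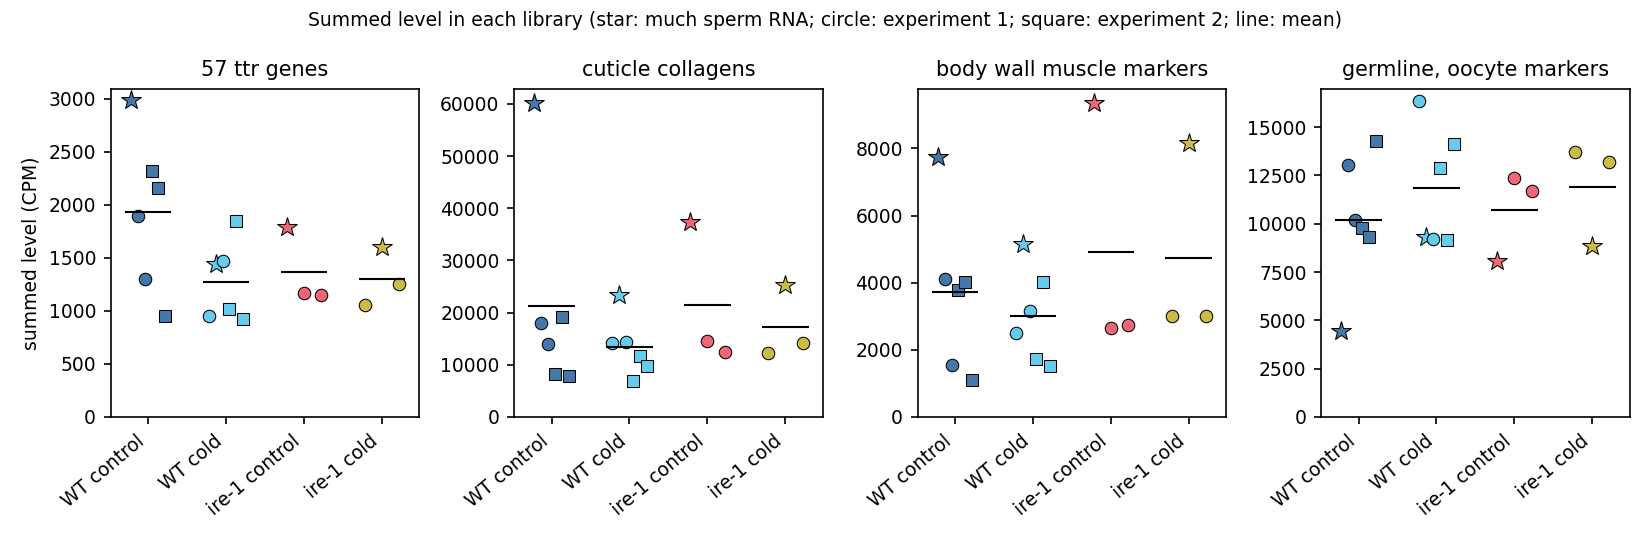
Summed level (CPM, y axis) of the 57 ttr genes, of cuticle collagens, of body wall muscle markers and of germline and oocyte markers in each library, by group (x axis). Stars are the 4 sperm-rich libraries, circles the others of experiment 1, squares experiment 2, and lines the group means. The stars have the highest collagen and muscle sums of all libraries, and WT control 1 has the highest ttr sum, 2987 CPM, and the lowest germline sum, 4448 CPM.

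Most ttr genes stood high in the sperm-rich libraries. Of the 47 members tested in experiment 1, 43 were above both other libraries of the group in WT control 1, 35 in WT cold 2, 43 in ire-1 control 1 and 38 in ire-1 cold 2. Among all 14344 genes tested there, the corresponding shares were 46.5%, 37%, 47.5% and 44.5%. WT cold 1 lay below both other WT cold libraries for 40 of the 47, against 36.5% of all tested genes. For 15 of the 47 members, 31.9%, at least 3 of the 4 sperm-rich libraries were above all 14 others, against 18.6% of all tested genes. Of the 15, ttr-9, ttr-12, ttr-13 and ttr-56 passed the filter on low counts through the sperm-rich libraries and were not tested without them. For these 4 members the outcome was thus close to fixed by the filter. The share of all tested genes in the same position was not counted.

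The genes named next were chosen after their values were seen. ttr-14 was at 50.7, 58.1, 23.5 and 67.2 CPM in these libraries, in the order given above, and at 2.07 to 16.6 CPM in the other 14. ttr-31 was at 20.96, 18.7, 7.32 and 17.7 CPM in the same 4 libraries. ttr-12 was at 6.58, 3.69, 0.806 and 2.79 CPM there, and at 0 to 0.553 CPM elsewhere. These 3 genes, with ttr-21, ttr-22 and ttr-56, were the 6 members for which each of the 4 sperm-rich libraries was above all others. The share of all genes with that pattern was not counted. ttr-22 was too low to test, with 3 reads in WT control 1, 26 in ire-1 control 1, 3 in WT cold 2 and 5 in ire-1 cold 2. The neighbours ttr-27, ttr-28 and ttr-29, on chromosome V from 12903550 to 12906832, had another pattern. They were at 2.35, 0.975 and 1.10 CPM in ire-1 control 1 and at 2.35, 0.810 and 1.58 CPM in ire-1 cold 2, but at 0.353, 0.0392 and 0.157 CPM in WT control 1. In both sperm-rich libraries of the mutant each of the 3 was thus above its level in every WT library. By contrast ttr-2, ttr-19, ttr-50 and ttr-52 exceeded the other libraries of the group in none of the 4. Pharynx markers had the same split by strain, at 134 and 203 CPM in ire-1 control 1 and ire-1 cold 2, against 13.3 and 21.1 CPM in WT control 1 and WT cold 2 and 2.78 to 17.1 CPM in the other 14. Collagen, hypodermis, muscle and glia sums were also higher in the 4 than in any other library, and the part of any of these tissues in the ttr levels was not tested.

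**Figure D3:**
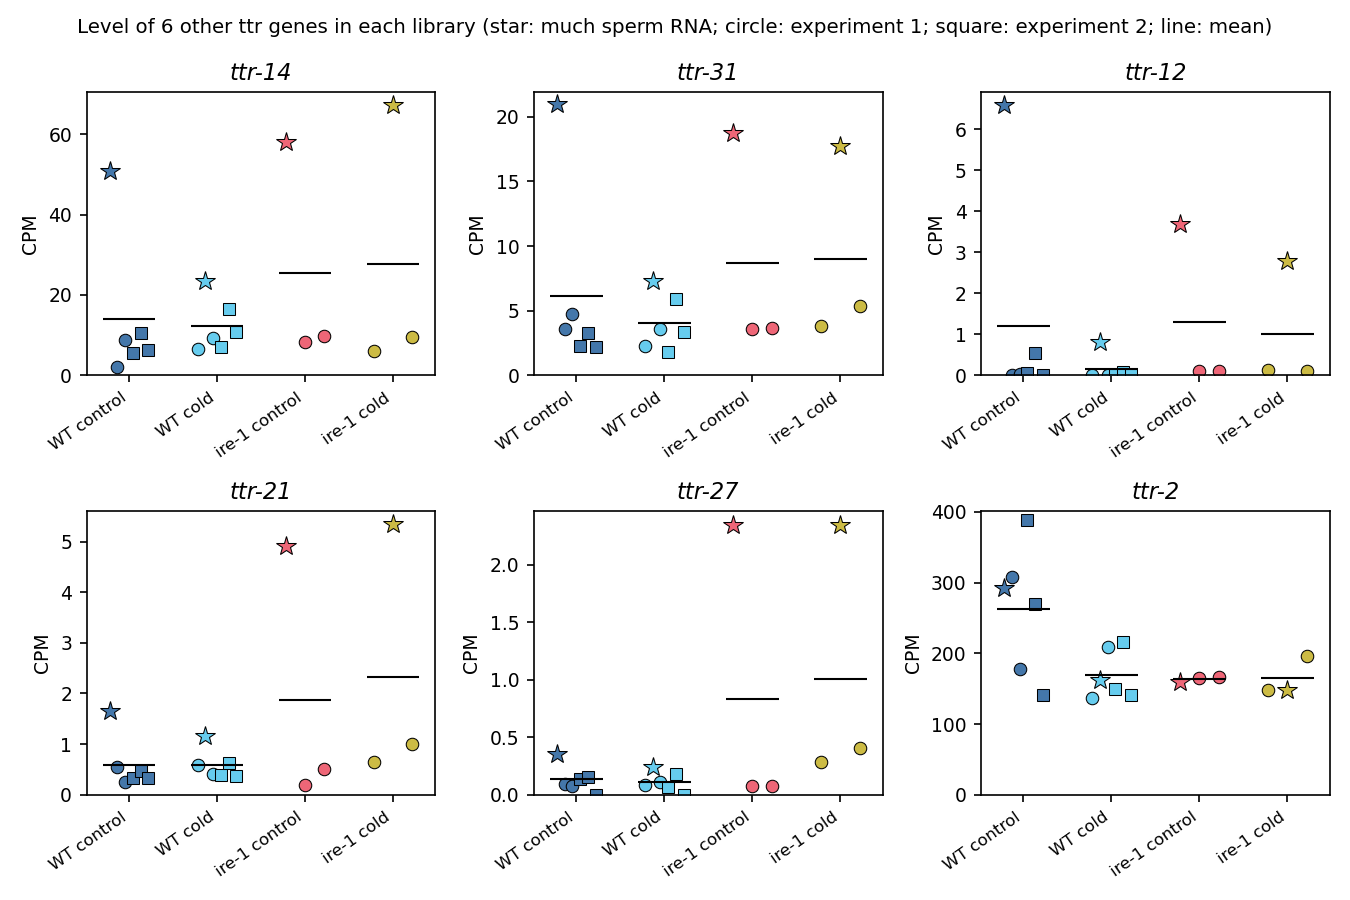
Level (CPM, y axis) of ttr-14, ttr-31, ttr-12, ttr-21, ttr-27 and ttr-2 in each library, by group (x axis). Stars are the 4 sperm-rich libraries, circles the others of experiment 1, squares experiment 2, and lines the group means. The stars lead every group for the first 4 genes, ttr-27 reaches 2.35 CPM only in the starred ire-1 libraries, and no star of ttr-2 is the highest point of its group.

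The first comparison asked how the family answered 24 h at 2 °C in WT. Of 40 members tested, 3 fell and 0 rose, with 17 too low to test. The 3 were ttr-49, ttr-46 and ttr-40. They made up 7.5% of the tested members, below the 13.1% of all 11766 tested genes called in this comparison, 10.4% lower and 2.7% higher in cold. By unadjusted p under 0.05, 15 of the 40 were lower, 37.5% against 20.9% of all genes, and 0 were higher, against 11.6%. The median log2 fold change was -0.68, against -0.07 over all tested genes, and 39 of 40 members were below 0, 97.5% against 54.7%. Scaling moved the all-gene median to 0.02 with RLE factors and to -0.18 with upper-quartile factors, and the median of the members to -0.59 and -0.80. Without WT control 1 the median of the members was -0.33, with 33 of 40 below 0.

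ttr-49 was at 12.6, 3.47, 5.48, 10.7, 8.69 and 3.64 CPM in WT control 1 to 6 and at 1.04, 3.12, 1.93, 2.46, 3.75 and 0.922 CPM in WT cold 1 to 6. The ranges met only where WT cold 5 exceeded WT control 2 and 6. It fell by 1.80 on the log2 scale (SE 0.47, edgeR quasi-likelihood test, Benjamini-Hochberg adjusted p = 0.0264). Its neighbour ttr-40, 33 bases away, was at 3.92, 1.98, 1.63, 2.92, 3.32 and 1.04 CPM in WT control and at 0.585, 1.05, 0.985, 0.646, 1.70 and 0.184 CPM in WT cold. It fell by 1.58 (SE 0.48, edgeR adjusted p = 0.0492). The pair thus moved in the same direction, with WT cold 5 the highest cold library and WT control 6 or 2 the lowest control library of each.

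ttr-46, on chromosome V from 9951233 to 9952178, was the only one of the 3 among the family's 5 most abundant members. Its levels were 123, 121, 86.4, 137, 133 and 63.1 CPM in WT control and 44.7, 63.9, 60.8, 56.6, 93.7 and 36.5 CPM in WT cold. It fell by 0.93 (SE 0.26, edgeR adjusted p = 0.0362). Again the groups overlapped through WT control 6 and WT cold 5. Over the 12 libraries no member separated cold from control, where 4.9% of all tested genes were lower and 1.65% higher without overlap.

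**Figure D4:**
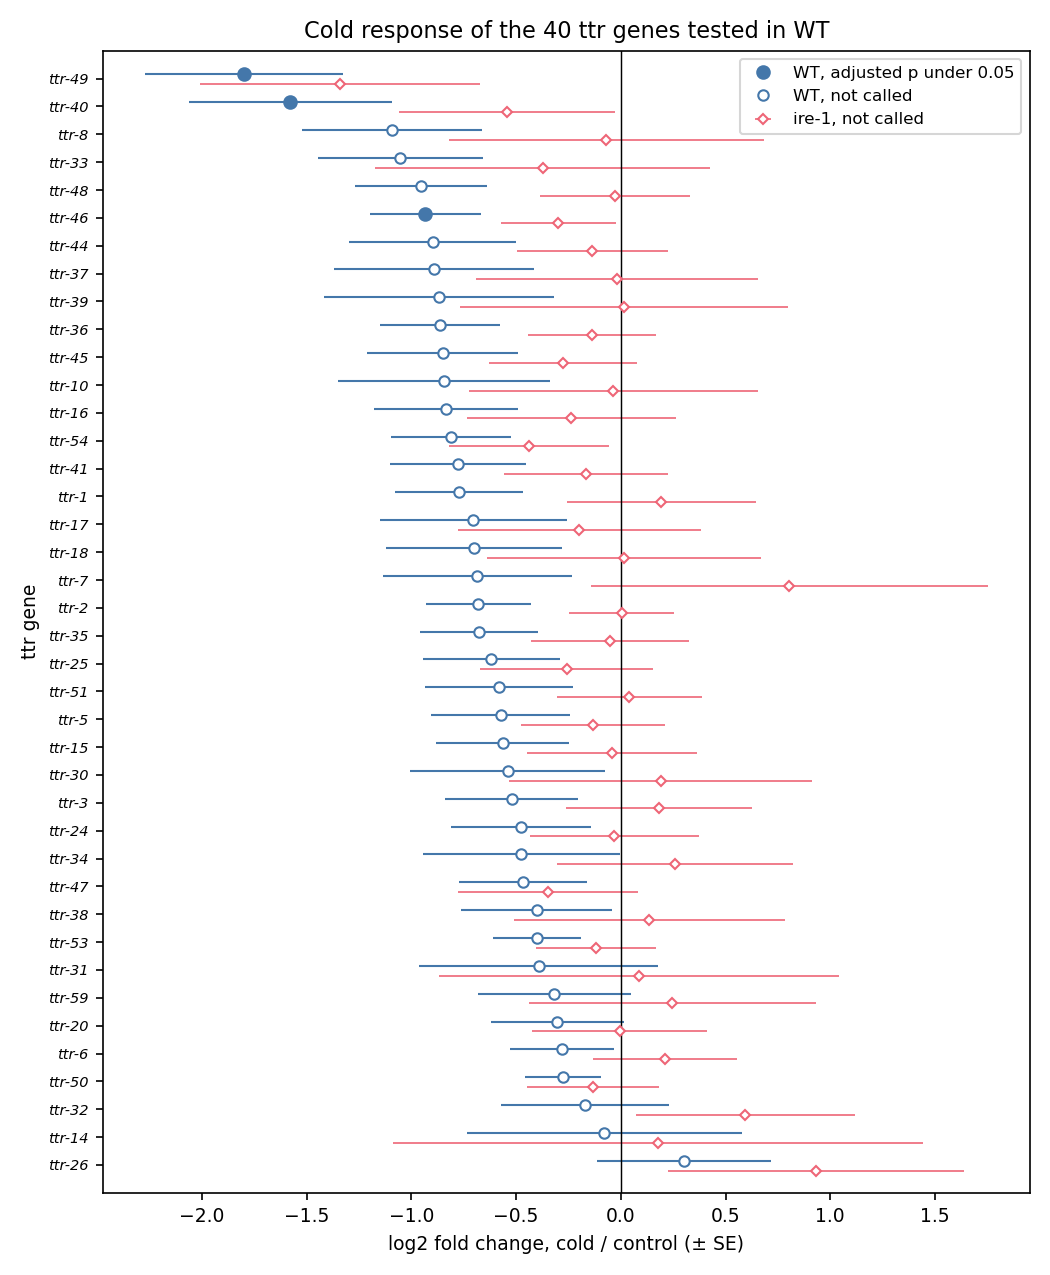
Log2 fold change of cold against control with its SE (x axis) for the 40 ttr genes tested in WT (y axis, ordered by the WT value). Blue circles are WT, filled where the adjusted p was under 0.05, and red diamonds the ire-1 strain, where no member was called. The WT values lie below 0 for 39 of 40 genes, with ttr-26 at 0.30 as the exception, and the ire-1 values lie around a median of -0.03.

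The other members did not pass the threshold. ttr-8 had a log2 fold change of -1.09 (SE 0.43, edgeR adjusted p = 0.105), ttr-33 of -1.05 (SE 0.39, 0.0924) and ttr-48 of -0.95 (SE 0.32, 0.0646). Among the most abundant genes the values were -0.84 for ttr-16, -0.85 for ttr-45, -0.68 for ttr-2, -0.58 for ttr-51, -0.56 for ttr-15, -0.48 for ttr-24 and -0.40 for ttr-53, with adjusted p from 0.0890 to 0.333. ttr-26 alone was above 0, at 0.30 (SE 0.42), and WT cold 5 held 16.4 CPM of it against 4.37 to 5.69 CPM in the other WT cold libraries. Without WT cold 5 its value was -0.08.

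The number of calls moved with single libraries, more than the fold changes did. Without any one of WT control 1, 4 or 5 or WT cold 1, 3, 4 or 6, 0 members were called, in fits in which 6.92% to 9.62% of all genes were called. In those fits and the others without 1 library, ttr-49 lay between -2.02 and -1.43, ttr-46 between -1.14 and -0.80 and ttr-40 between -1.96 and -1.30. Without WT control 2 or WT cold 2 the count was 1, where 10.9% of all genes were called. Without WT control 3 it was 6, where 17.9% were called, without WT cold 5 it was 9 of 42 and without WT control 6 it was 11 of 42, in fits in which 18.6% and 21.2% of all genes were called. Without WT control 6 and WT cold 5 together, 19 of 42 fell, the 3 above among them, 45.2% against 27.8% of all genes called. That fit leaves out the WT control library with the lowest ttr sum, 949 CPM, and the WT cold library with the highest, 1851 CPM. Such a choice enlarges a fall by construction, so the 19 calls are no separate support for it. Without the 4 sperm-rich libraries, 1 of 40 was called, ttr-49 at -1.66, against 10.9% of all genes, and the median was -0.44 with 35 of 40 below 0. In fits of each experiment alone, 36 of 41 members tested in both fits were below 0 in each. The share of all genes with that pattern was not counted. Members moved together within libraries, so they are not separate observations of a direction. The values were -1.76 in experiment 1 and -1.71 in experiment 2 for ttr-49, -0.91 and -0.84 for ttr-46, and -1.47 and -1.56 for ttr-40. Neither experiment alone gave a call among the members, but 0.0239% of all genes were called in experiment 1 alone and 0.425% in experiment 2 alone. Of the intestinal markers, 7 of 13 fell in WT cold with a median of -1.32, 11 of 78 collagens fell with a median of -0.96, and the 14 germline markers had a median of 0.28. The part of these tissues in the ttr values was not tested.

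In the ire-1 strain, 0 of 47 members were called by edgeR for cold against control, where 0.0558% of all 14344 tested genes were called, and 0 by DESeq2, which called 2.38% of them. At an unadjusted p under 0.05 the count was also 0, where 4.72% of all genes were lower and 2.31% higher. The median was -0.03, against -0.04 over all tested genes, and it moved with the sperm-rich libraries. Without ire-1 cold 2 it was -0.48, against -0.14 over all genes, and without ire-1 control 1 it was 0.33, against 0.02. ttr-49 was at 5.91, 2.61 and 2.00 CPM in ire-1 control and at 1.45, 1.82 and 0.857 CPM in ire-1 cold, with a log2 fold change of -1.34 (SE 0.67, edgeR adjusted p = 0.810). It was the only member without overlap between the groups, where 9.32% of all tested genes were lower and 4.53% higher without overlap. ttr-40 had a value of -0.54 (SE 0.52), ttr-54 of -0.44 (SE 0.38) and ttr-43 of -0.42 (SE 0.79). The largest positive values were those of ttr-26 at 0.93 (SE 0.71), ttr-7 at 0.81 (SE 0.95), ttr-56 at 0.63 (SE 1.99) and ttr-32 at 0.59 (SE 0.52). Without ire-1 cold 2, a sperm-rich library, the values of ttr-26, ttr-7 and ttr-56 were below 0.

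Whether the strains differed in their cold response was tested within experiment 1. By edgeR 0 of 47 members were called, against 0% of all tested genes, and DESeq2 called 0, against 0.00697%. At an unadjusted p under 0.05 the count was 0, where 0.16% of all genes were lower and 1.21% higher. The difference, ire-1 minus WT, was above 0 for 47 of 47 members, where 41% of all tested genes were below 0. Its median over members was 0.72 against 0.12 over all tested genes, or 0.61 against 0.02 with RLE factors. That pattern weakened without some single libraries. Without WT control 1 the median was 0.09, against -0.06 over all genes, and 18 of the 50 members tested in that fit were below 0. Without ire-1 cold 2 the median was 0.31, against -0.06 over all genes. Without the 4 sperm-rich libraries it was 0.37, against -0.06, with 7 of 43 below 0. Several tissue lists were displaced the same way, with a median of 1.00 and 0 of 13 below 0 for intestine. Cuticle collagens had 1.25 with 7 of 121 below 0, and sperm genes 1.64 with 1 of 53 below 0. Germline and oocyte markers had -0.22 with 11 of 14 below 0, and glia markers -0.37 with 4 of 6 below 0. The part of these tissues in the ttr values was not tested. For ttr-46 the difference was 0.67 (SE 0.39), for ttr-40 0.99 (SE 0.73) and for ttr-49 0.49 (SE 0.93), each with an edgeR adjusted p of 0.996. A fall in WT and no call in ire-1 therefore did not amount to a tested difference between the strains.

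The strains were then compared directly. Of the tested members ttr-1 had the lowest log2 difference, ire-1 minus WT, both in control and after cold. It was at 10.7, 6.85, 4.21, 8.48, 8.53 and 3.51 CPM in WT control and at 4.14, 5.46, 5.46, 3.30, 3.84 and 3.75 CPM in WT cold. In the mutant it was at 2.01, 1.19 and 1.18 CPM in control and at 1.31, 2.15 and 1.51 CPM in cold. All 6 ire-1 libraries lay below all 12 WT libraries. ttr-53 shared this, at 48.5, 49.1 and 53.1 CPM in ire-1 control and 52.6, 36.1 and 51.0 CPM in ire-1 cold against 55.4 to 154 CPM in WT. They were the 2 of 47 tested members with such a separation, and 0 members were separated in the other direction, where 0.892% of all tested genes were lower and 0.174% higher.

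**Figure D5:**
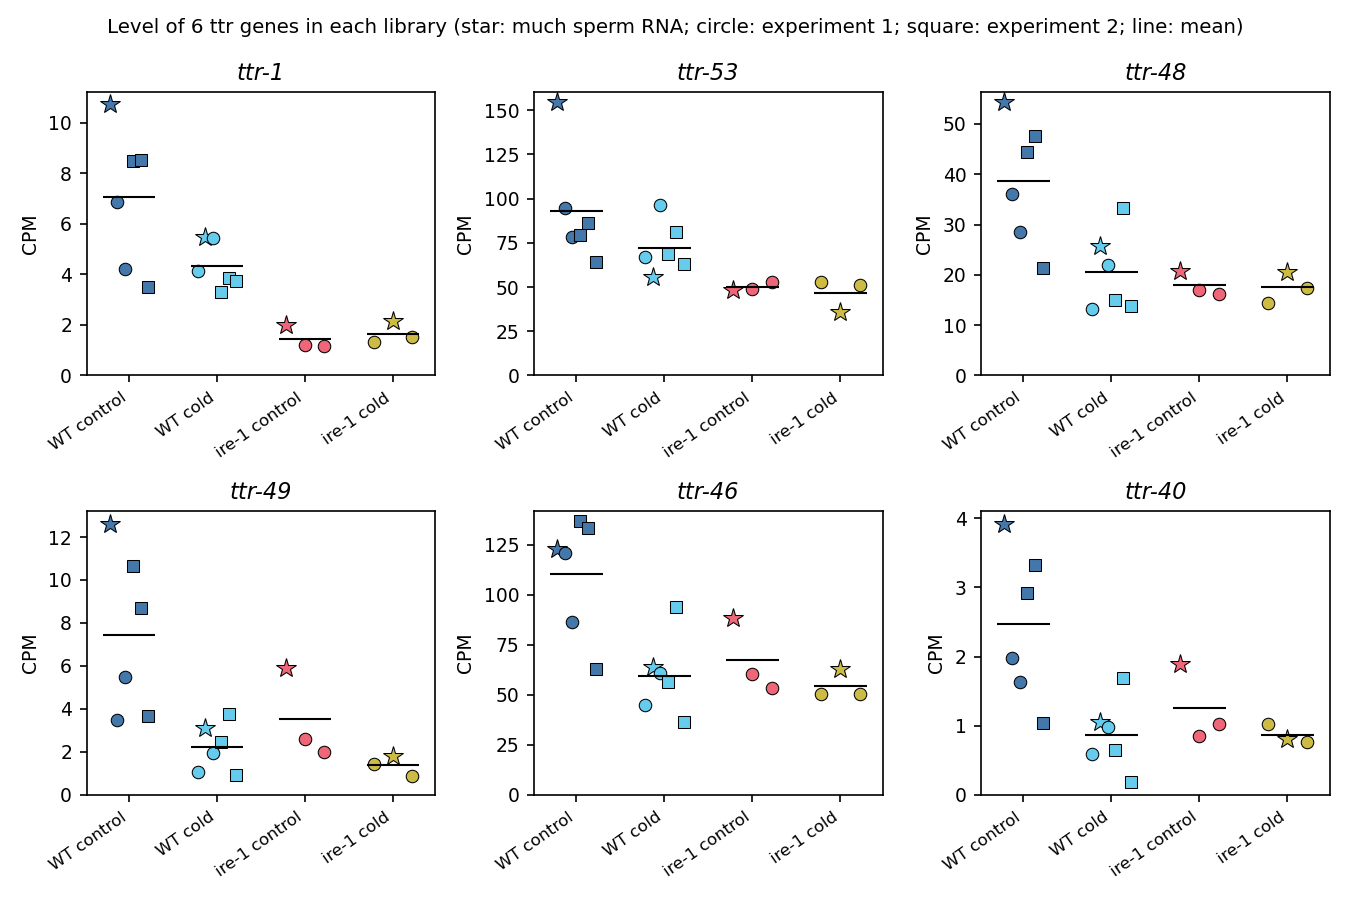
Level (CPM, y axis) of ttr-1, ttr-53, ttr-48, ttr-49, ttr-46 and ttr-40 in each library, by group (x axis). Stars are the 4 sperm-rich libraries, circles the others of experiment 1, squares experiment 2, and lines the group means. All ire-1 points of ttr-1 and ttr-53 lie under all WT points, and WT cold points of ttr-49, ttr-46 and ttr-40 lie mostly under WT control.

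In control worms 0 of 47 members were called between the strains by edgeR, in a comparison in which 0.0627% of all tested genes were called, 0.0488% lower and 0.0139% higher. ttr-1 had a log2 difference, ire-1 minus WT, of -2.39 (SE 0.47, edgeR adjusted p = 0.150), ttr-48 of -1.21 (SE 0.36, 0.221), ttr-53 of -1.20 (SE 0.29, 0.172) and ttr-25 of -1.17 (SE 0.42, 0.289). By unadjusted p under 0.05, 13 members were lower and 0 higher, 27.7% lower against 9.33% of all genes, where 2.82% were higher. A block over all replicate numbers called 0 members, against 0.0139% of all genes. The labels do not say whether same-numbered libraries share a batch. Those of both strains in 1 condition deviated together, which the sperm-rich libraries may carry. Taking them as pairs on that ground alone, 7 of 47 fell and 0 rose, 14.9% against 2.72% of all genes called. These were ttr-1 at -2.32 (edgeR adjusted p = 0.00560), ttr-48 at -1.15 (0.0279), ttr-53 at -1.12 (0.0370), ttr-25 at -1.12 (0.0377), ttr-24 at -1.01 (0.0436), ttr-46 at -0.78 (0.0436) and ttr-36 at -0.97 (0.0477). DESeq2 without pairs called 3, where it called 2.05% of all genes. Without WT control 3, ttr-1 was called at -2.68 (edgeR adjusted p = 0.0486), the only member called, where 0.323% of all genes were called. Leaving out other single libraries gave ttr-1 an edgeR adjusted p of up to 0.512.

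The median over members in control was -0.67, against -0.04 over all genes, with 41 of 47 below 0, 87.2% against 53.1%. RLE factors moved the all-gene median to 0.12 and that of the members to -0.49. WT control 1 carried much of this median, which was 0.22 without it, against 0.14 over all genes, with 22 of 50 members below 0. Without the 4 sperm-rich libraries the median was -0.43, against 0.04 over all genes, with 33 of 43 members below 0. Intestinal markers had a median of -0.43 with 12 of 13 below 0 and the yolk genes a median of -1.08 with 6 of 6 below 0. Germline and oocyte markers had a median of 0.28 with 3 of 14 below 0. The part of these lists in the ttr values was not tested. Libraries of the strains did not overlap for 10 of 47 members, 21.3%, each lower in ire-1, against 10.2% of all genes, and 4.43% of all genes were higher without overlap. They were ttr-1, ttr-2, ttr-5, ttr-25, ttr-35, ttr-36, ttr-44, ttr-48, ttr-53 and ttr-54. The neighbours of ttr-1 in its cluster differed less, with -0.73 (SE 0.25) for ttr-2, 72 bases away, and -0.23 for ttr-3. ttr-54, the neighbour of ttr-53, had -1.01 (SE 0.38). The abundant members had -0.74 for ttr-51, -0.88 for ttr-45, -1.12 for ttr-24, -0.50 for ttr-16 and -0.50 for ttr-15, and the last 2 were at 0.13 and 0.18 without WT control 1. The largest positive values were those of ttr-21 at 1.12 (SE 1.23), ttr-33 at 0.65 (SE 0.80), ttr-13 at 0.52 (SE 0.99) and ttr-26 at 0.35 (SE 0.70), and each value was below 0 without ire-1 control 1.

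After cold, 0 of 47 members were called by edgeR between the strains, where 0.0139% of all tested genes were called, and the count by unadjusted p under 0.05 was 2, both lower, where 5.82% of all genes were lower and 1.83% higher. These were ttr-1 at -1.63 (SE 0.46, edgeR adjusted p = 0.613) and ttr-53 at -0.70 (SE 0.29, 0.613). The median was 0.12 against 0.07 over all tested genes, or 0.25 against 0.17 with upper-quartile factors. It was -0.24 without ire-1 cold 2, against -0.15 over all genes, and -0.11 without WT cold 1, against 0.04. Without the 4 sperm-rich libraries it was -0.01, against 0.01, so the median of the members had no stable sign. ttr-1 and ttr-53 were also the members without overlap in the lower direction, where 7.42% of all genes had none, while ttr-32 and ttr-33 had none in the higher direction, where the share was 5.08%. The largest positive fitted values, 1.98 for ttr-56 (SE 2.12), 1.97 for ttr-9 (SE 2.14), 1.87 for ttr-13 (SE 1.06) and 1.85 for ttr-12 (SE 2.39), were those of genes near or below 1 CPM outside the sperm-rich libraries.

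The mean strain difference over control and cold, a test added after the values were seen, called ttr-1 alone among 47 members. Its mean difference was -2.01 (SE 0.33, edgeR adjusted p = 0.0408), where 0.258% of all tested genes were called. Without the 4 sperm-rich libraries it was -1.97 (SE 0.25, edgeR adjusted p = 0.0192) and again the only call, among 43 members tested, with 0.721% of all genes called. ttr-53 had -0.95 (SE 0.20, edgeR adjusted p = 0.0615). With the libraries taken as pairs, 10 members fell and 1 rose, in a fit in which 11.3% of all genes were called. In that fit ttr-1 was at -1.99 (edgeR adjusted p = 0.00119) and ttr-53 at -0.89 (0.0124), and the member that rose was ttr-33 at 0.95 (0.0340). Because ttr-1 was chosen for this test after its separation was seen, the test repeats that observation and is not independent of it.

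The members with a described role were mostly scarce. ttr-52, which codes for the bridge to CED-1, had 0 to 13 reads in a library, 0 to 0.586 CPM, and was too low to test. Its highest level was in WT control 2. ttr-11, which codes for the bridge to integrin, had 0 to 13 reads, 0 to 0.509 CPM, and was highest in WT control 1, ire-1 control 1 and ire-1 cold 2, all sperm-rich. ttr-33, the neuroprotective member, was at 3.80, 1.58, 1.05, 1.09, 1.66 and 0.715 CPM in WT control and at 0.585, 1.30, 0.833, 0.711, 0.625 and 0.738 CPM in WT cold. In the mutant it was at 7.10, 1.88 and 1.65 CPM in control and at 1.50, 5.10 and 1.41 CPM in cold. The highest library of each group was the sperm-rich one in experiment 1, and all 3 ire-1 cold libraries were above the 6 WT cold libraries. The log2 difference after cold was 1.53 (SE 0.82, edgeR adjusted p = 0.734). Because ttr-33 shares exon bases with txt-5 on the same strand, its values are uncertain. No source used here tells how reads in the shared bases were counted.

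Partners of TTR-52 and TTR-11 in the recognition and engulfment of dying cells were expressed well above them. Of 17 such genes, all tested, 1 rose and 0 fell in WT cold, where 2.7% of all tested genes rose and 10.4% fell. Their median log2 fold change was 0.08, against -0.07 over all tested genes. In the other comparisons 0 were called, where at most 0.0627% of all tested genes were called. The gene that rose was ced-12, part of the exchange factor for the small GTPase CED-10, at 107 ± 21.7 CPM in WT control and 147 ± 15.0 CPM in WT cold (SD, n = 6), a change of 0.43 (SE 0.12, edgeR adjusted p = 0.0347). ced-5, whose product acts with CED-12, had 0.69 (SE 0.26, edgeR adjusted p = 0.0930). The ABC transporter gene ced-7 had 0.47 (0.111), and the lipid flippase gene tat-1 had 0.34 (0.107). ced-1 itself was at 94.1 ± 18.6 CPM in WT control and 98.7 ± 19.5 CPM in WT cold (SD, n = 6), with 0.03 (SE 0.14).

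A transthyretin-fold gene without a ttr symbol, R09H10.3, belongs to the hydroxyisourate hydrolases, enzymes of urate breakdown from which transthyretins are thought to descend. It was at 27.3 ± 8.94 CPM in WT control and 11.6 ± 4.91 CPM in WT cold (SD, n = 6), and it fell by 1.27 (SE 0.33, edgeR adjusted p = 0.0253). In the ire-1 strain it was at 11.3 ± 2.17 CPM in control and 8.58 ± 2.92 CPM in cold (SD, n = 3), with -0.40 (SE 0.37) and no call. The log2 strain difference in control was -1.30 (SE 0.38, edgeR adjusted p = 0.217). ZK697.8, the other gene of this kind, was under 0.1 CPM in every library and was not tested.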

How the data were processed

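The authors deposited unnormalised read counts for each gene, and the submitters' processing notes name bcl2fastq, STAR 2.5.0a, HTSeq and the build WBcel235. The annotation release and strand setting were not given in the sources used here. Symbols, exons and positions came from the Ensembl WBcel235 annotation, which gave no symbol for 3055 of 46748 identifiers. The members, gene lists and tests were chosen with earlier results of these data known, and 1 gene with a ttr symbol is not reported here. Protein and promoter sequences were not used here.

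Count models were fitted in edgeR 4.0.16 (R 4.3.3) by quasi-likelihood (glmQLFit and glmQLFTest, TMM factors, filterByExpr with a minimum count of 10 and a minimum total of 15), with Benjamini-Hochberg adjustment across every tested gene at 0.05. The WT cold response used the 12 WT libraries and the experiment as covariate. The remaining 4 comparisons came from 1 fit of the 12 libraries of experiment 1, so those that use the same control libraries are not independent. SE is the fold change divided by the root of the F statistic. The fits were tested on simulated counts. DESeq2 1.42.0, other scalings, no filter, replicate blocks and left-out libraries were alternatives. Named members were those called, the 8 highest per kilobase in WT control, up to 4 largest rises and falls per comparison other than the difference, and ttr-52, ttr-33, ttr-11 and ttr-1, and others were named after their values were seen. The design text calls the samples biological replicates. Within a group no libraries were near copies, as chi-square per degree of freedom was at least 12.2.

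Replicate numbers were checked as pairs by correlating deviations from the mean of each group. Same-numbered libraries of both strains in 1 condition had r of 0.362 to 0.880, all 6 of 6 over 0.1, and were taken as pairs on that ground alone, which the sperm-rich libraries may carry. Control and cold libraries with the same number were above 0.1 in 3 of 6 WT pairs and 1 of 3 ire-1 pairs and were not taken as pairs. Limits from 0 counts cover counting error only.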

Additional observations from a re-analysis of the deposited data

Results flagged for a closer look

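In groups of 6 WT libraries, 1 library can stand far from the rest by the size of its gap to the nearest one relative to the range of the group. For the named members and the summed ttr level 56 such groups were examined and 18 had such a library. Chance flags about 1 in 20 groups, but that share is no yardstick here, because several members were named for large fitted changes and 10 of the 18 flags came from 1 library. WT control 1, a sperm-rich library, stood apart with ttr-53 at 154 CPM, ttr-8 at 11.99, ttr-12 at 6.58, ttr-7 at 5.68, ttr-33 at 3.80, ttr-9 at 3.41, ttr-21 at 1.65, ttr-56 at 1.57, ttr-11 at 0.509 and ttr-13 at 0.470 CPM. WT cold 2, also sperm-rich, stood apart with ttr-33 at 1.30, ttr-21 at 1.16, ttr-12 at 0.806 and ttr-56 at 0.245 CPM. WT cold 5 did so with ttr-26 at 16.4, ttr-32 at 8.66 and ttr-13 at 0.357 CPM, and WT control 2 with ttr-52 at 0.586 CPM. Each of these values was the highest of its group. The lowest of them rest on few reads, with 4 for ttr-13 in WT cold 5 and 7 for ttr-56 in WT cold 2.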

How the results depend on the processing

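For cold in WT, where 3 members were called, DESeq2 called 6 (15% against 22.2% of all genes), the replicate block 5 (12.5% against 12.8%), the fit without the 4 sperm-rich libraries 1, either experiment alone 0, the fit without WT control 6 and WT cold 5 19, and leaving out single libraries 0 to 11. For ire-1 minus WT in control, where 0 were called, DESeq2 called 3, the replicate block within condition 7, a block over all numbers 0, and leaving out single libraries 0 to 1. Calls of members did not change with the block in the other 3 comparisons. For the named members in the comparisons that named them, signs changed as follows, and the cause was not tested. Other members also changed sign, as ttr-14 in WT cold, at 0.92 without WT control 1. With upper-quartile factors ttr-46 and ttr-40, ire-1 minus WT in cold, had 0.025 and 0.0284. Without the 4 sperm-rich libraries ttr-43 in ire-1 cold had 0.17, ttr-21 in the strain comparison in control -0.0831 and ttr-40 in that after cold 0.14. Without WT control 6 and WT cold 5, ttr-26 in WT cold had -0.20. Leaving out single libraries gave -0.0834 to 0.62 for ttr-26 in WT cold. For cold in ire-1 it gave -1.35 to 0.66 for ttr-33, -0.11 to 0.51 for ttr-1, -0.88 to 0.62 for ttr-43, -0.15 to 1.72 for ttr-26, -0.24 to 2.17 for ttr-7 and -3.28 to 2.39 for ttr-56. For the difference of the cold responses it gave -0.24 to 1.00 for ttr-49 and -0.10 to 1.77 for ttr-33. For ire-1 minus WT in control it gave -0.14 to 1.503 for ttr-33, -1.05 to 2.32 for ttr-21, -0.55 to 1.80 for ttr-13, -0.22 to 1.02 for ttr-26, -0.78 to 0.18 for ttr-15 and -0.83 to 0.13 for ttr-16. For ire-1 minus WT in cold it gave -0.29 to 0.0496 for ttr-46, -0.35 to 0.12 for ttr-40, -1.93 to 4.11 for ttr-56, -1.503 to 2.52 for ttr-9 and -1.33 to 7.75 for ttr-12. Near or below 1 CPM, counting error adds to the spread between libraries, and the 10 members tested in neither fit cannot be compared at this depth.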
